A study of Mus musculus with 8 samples.

Results

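The 8 genes described here belong to cholesterol synthesis and its regulation by SREBP2: Srebf2, Insig1, Hmgcs1, Idi1, Fdps, Fdft1, Sqle and Lss. They were taken as the genes named alone by a probe set, and 10 probe sets named them, of 28853 probe sets on the array. Counted as genes they are 8 of 19938. The brightest probe set stood for a gene with more than 1. Expression was measured on 8 Affymetrix arrays. The RNA came from isolated intestinal epithelial cells of 8-week-old male mice of the outbred ICR stock, whose small intestine had been transfected in vivo 4 days earlier. Of these arrays, 3 came from intestine given siRNAs against YAP and TAZ (siYAP/TAZ 1 to 3) and 3 from intestine given an siRNA against GFP (siGFP 1 to 3). The other two arrays form an shRNA arm: plasmid-borne shRNAs were directed at YAP and TAZ on one (shYAP/TAZ) and at LacZ on its control (shLacZ). The labels' descriptions name, for each control array, the knockdown array it controls for, which gives 3 siRNA pairs and 1 shRNA pair, and they do not say what the arrays of a pair share. They also do not tie arrays to separate mice. The p-values therefore speak only to the spread among these arrays, and that spread may be technical. The labels name no allele, and give neither the promoter of the shRNA plasmids nor the share of cells transfected.

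Cells make cholesterol from acetyl-CoA through the mevalonate pathway, and squalene is the first intermediate committed to sterols. When sterol in the endoplasmic reticulum is low, SREBP2, the product of Srebf2, is carried to the Golgi by its escort SCAP, is cleaved there, and switches on the enzyme genes, Insig1 and its own gene. When sterol is high, the INSIG proteins hold SCAP back. The small intestine both absorbs cholesterol from the diet and makes it.

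The 250 bases before the RefSeq start site are shown for Hmgcs1, Insig1, Idi1, Lss and Srebf2, the 5 of the 8 genes matched in the RefSeq promoter table (GRCm38.p6), because SREBP2 acts on such genes through promoter elements. Capitals mark 3 motifs found by a letter search on both strands: CACNCCAC, the core of the classical sterol regulatory element; CCAAT, the box bound by NF-Y; and GGGCGG, the box bound by Sp1. NF-Y and Sp1 are known partners of SREBPs at sterol-responsive promoters.
Hmgcs1, chr13:119690101-119690350, plus strand: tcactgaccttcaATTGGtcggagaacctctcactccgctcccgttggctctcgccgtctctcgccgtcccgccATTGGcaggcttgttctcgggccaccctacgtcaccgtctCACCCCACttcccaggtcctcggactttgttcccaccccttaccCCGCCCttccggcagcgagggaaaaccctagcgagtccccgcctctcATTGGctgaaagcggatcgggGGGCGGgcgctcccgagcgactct
Insig1, chr5:28071162-28071411, plus strand: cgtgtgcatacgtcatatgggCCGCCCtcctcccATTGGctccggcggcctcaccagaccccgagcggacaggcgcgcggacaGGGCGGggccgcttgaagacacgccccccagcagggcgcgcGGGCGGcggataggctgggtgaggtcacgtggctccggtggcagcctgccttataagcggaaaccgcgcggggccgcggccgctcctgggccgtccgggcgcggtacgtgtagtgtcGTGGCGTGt
Idi1, chr13:8885356-8885605, plus strand: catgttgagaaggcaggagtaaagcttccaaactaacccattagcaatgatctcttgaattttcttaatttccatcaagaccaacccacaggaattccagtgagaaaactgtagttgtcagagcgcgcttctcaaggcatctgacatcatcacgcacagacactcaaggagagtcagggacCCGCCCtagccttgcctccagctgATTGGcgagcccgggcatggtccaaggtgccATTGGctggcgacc
Lss, chr10:76531355-76531604, plus strand: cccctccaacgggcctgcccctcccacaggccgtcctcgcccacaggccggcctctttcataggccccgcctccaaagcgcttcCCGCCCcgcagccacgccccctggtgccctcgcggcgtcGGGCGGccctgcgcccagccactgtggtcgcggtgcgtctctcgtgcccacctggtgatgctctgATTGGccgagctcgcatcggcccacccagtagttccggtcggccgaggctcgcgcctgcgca
Srebf2, chr15:82147019-82147268, plus strand: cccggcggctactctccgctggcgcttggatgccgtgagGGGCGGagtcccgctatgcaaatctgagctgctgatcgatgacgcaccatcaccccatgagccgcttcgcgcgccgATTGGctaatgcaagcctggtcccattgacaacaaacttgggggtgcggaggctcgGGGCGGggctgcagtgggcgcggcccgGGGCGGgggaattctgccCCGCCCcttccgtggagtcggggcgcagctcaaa
A CCAAT box was present in 5 of 5 of these windows, against 33.8% of 32851 promoter windows of the same length, and a GGGCGG box in 5 of 5, against 32.7%. The windows behind these shares were not matched to the 5 for base composition or expression. The core CACNCCAC lay in 2 of 5, those of Hmgcs1 and Insig1, against 5.29% of all windows. It starts 136 bases before the start site in Hmgcs1 and 9 bases before it in Insig1, where it reads on the minus strand. The longer element, in which the letters AT stand before that core, was in 0 of 5 windows and in 0.192% of all. Only exact letters were counted, so near matches are not marked. The Srebf2 window holds a stretch that differs from the longer element only in its last letter. In Hmgcs1 and Idi1 a CCAAT box on the minus strand began 45 bases before the start site in both.

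No gene of the 8 passed the test between siYAP/TAZ and siGFP arrays. Insig1 had the largest difference and was the only one of the 8 whose 3 siYAP/TAZ arrays all lay below the 3 siGFP arrays. In the 4 pairs, the 8 genes lay close to 0 in siRNA pair 1, were split in siRNA pair 2, were lower for 8 of 8 in siRNA pair 3 and were higher for 8 of 8 in the shRNA pair. Levels below are log2 intensities after quantile normalization, and differences are siYAP/TAZ minus siGFP, or shYAP/TAZ minus shLacZ, on that scale. Array intensity depends on the probes, so levels are compared between arrays and not between genes. In bulk samples, fewer cells of a type and less RNA per cell cannot be told apart.

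A few facts of the series bear on every value. Epithelial markers were bright on all arrays, with Epcam between 11.47 and 12.38. The targeted genes were not measurably lower: Yap1 differed by -0.12 (SE 0.32) and Wwtr1, which encodes TAZ, by -0.28 (SE 0.36; limma adjusted p = 1.00 for both). Yap1 had 7.41, 6.78 and 7.47 in siYAP/TAZ 1 to 3, against 7.16, 7.64 and 7.20 in siGFP 1 to 3, and 7.25 in shYAP/TAZ against 7.35 in shLacZ. Wwtr1 had 5.60, 5.94 and 5.66 in siYAP/TAZ 1 to 3, against 6.16, 5.36 and 6.52 in siGFP 1 to 3, and 6.02 in shYAP/TAZ against 5.96 in shLacZ. Both overlapped between groups, so groups are called by their labels. Wwtr1 lay between 5.36 and 6.52, and the arrays' minimum was just above 16 on the linear scale. Whether closeness to that minimum hid a fall was not tested. The highest deposited intensity was between 11959 and 15713 on the arrays of siRNA pair 1 and the shRNA pair, and between 18731 and 20064 on those of siRNA pairs 2 and 3, so the files hold a split in signal range that runs between pairs and not within them.

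Srebf2 encodes SREBP2, the transcription factor of the pathway. Its level was 9.20, 8.47 and 7.49 in siYAP/TAZ 1 to 3, against 9.30, 7.71 and 8.61 in siGFP 1 to 3, and 9.21 in shYAP/TAZ against 8.62 in shLacZ. The groups of the siRNA arm overlapped, and siYAP/TAZ 3 and siGFP 2 were the lowest of the 8 arrays. The means were 8.38 ± 0.86 in siYAP/TAZ and 8.54 ± 0.80 in siGFP (SD, n = 3 each), a difference of -0.15 with an SE of 0.53. The 95% confidence interval ran from -1.35 to 1.05, and the two-sided p of the exact permutation test was 0.7.

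Insig1 encodes the endoplasmic reticulum protein that holds SCAP back when sterol is plentiful, and it is itself a target of SREBP2. Insig1 stood at 8.65, 7.69 and 7.70 in siYAP/TAZ 1 to 3, against 8.97, 8.92 and 8.79 in siGFP 1 to 3. The siGFP arrays lay close together, and siYAP/TAZ 2 and 3 lay over 1 log2 unit below their controls. In the shRNA arm the order was the other way, with 9.69 in shYAP/TAZ, the highest of the 8 arrays, against 8.83 in shLacZ. Means were 8.01 ± 0.56 in siYAP/TAZ and 8.90 ± 0.10 in siGFP (SD, n = 3 each), or 1.84-fold lower in siYAP/TAZ. The difference of -0.88 (SE 0.34, 95% confidence interval -1.66 to -0.10) had an unadjusted limma p of 0.0308 and an adjusted p of 1.00 over all genes. The exact two-sided permutation p was 0.1, the smallest that 3 arrays against 3 allow. Non-overlap with siYAP/TAZ lower was seen for 2.99% of all genes, and non-overlap with siYAP/TAZ higher for 1.6% of all genes and 0 of the 8. Leaving out single arrays kept the Insig1 difference between -1.20 and -0.72.

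**Figure D1:**
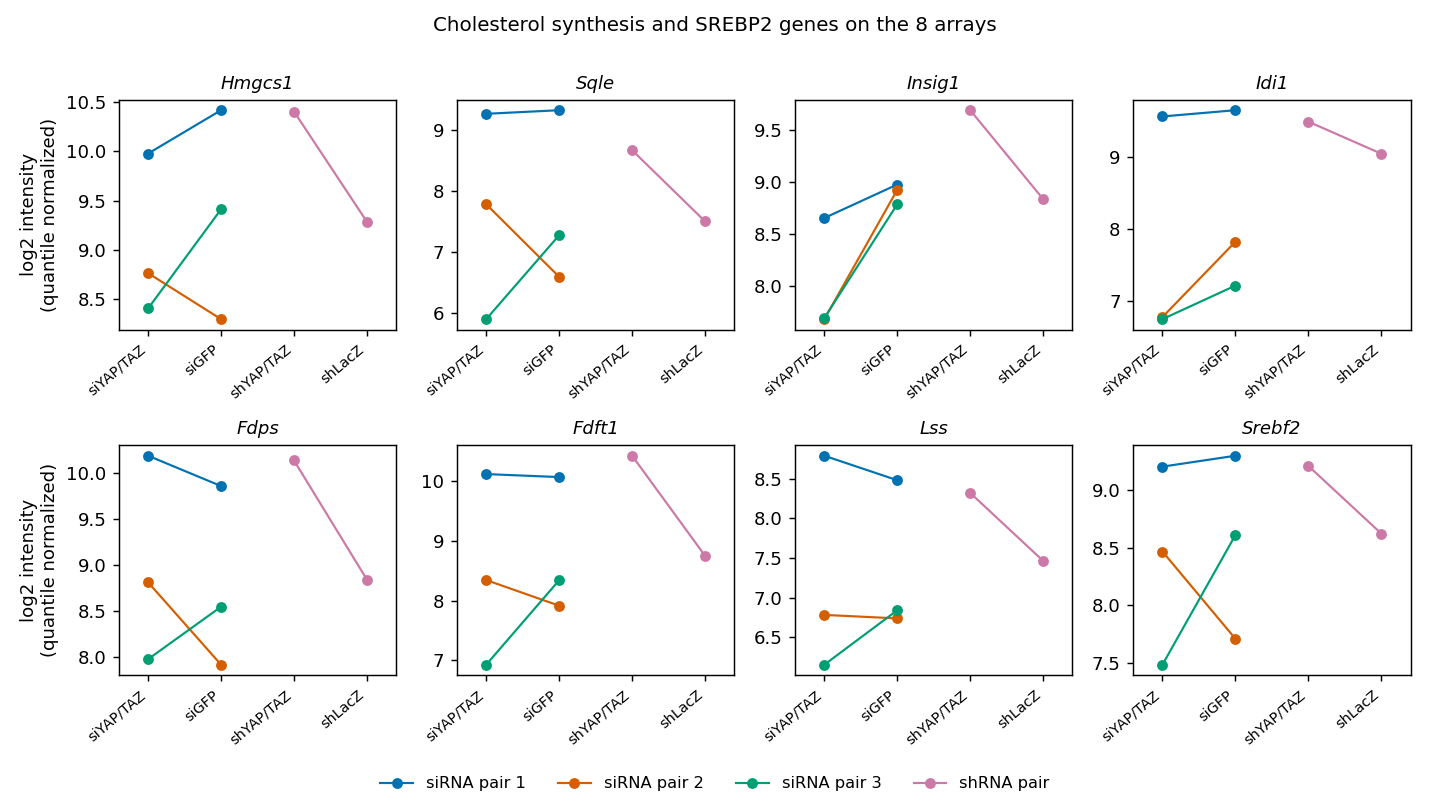
Log2 intensity (y axis, quantile normalized, a separate scale in each panel) of the 8 genes by group (x axis), 1 point per array, with a line joining each knockdown-labelled array to its control. Insig1 is the panel in which all 3 siYAP/TAZ points, at 8.65 or below, lie under the siGFP points, at 8.79 or above; in every panel the shYAP/TAZ point lies above the shLacZ point.

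Of the 8, 3 genes act between acetyl-CoA and farnesyl diphosphate. Hmgcs1, the cytosolic HMG-CoA synthase, had levels of 9.98, 8.76 and 8.40 in siYAP/TAZ 1 to 3, against 10.42, 8.30 and 9.41 in siGFP 1 to 3, and 10.40 in shYAP/TAZ against 9.28 in shLacZ. siGFP 2 was its lowest array, and the siRNA groups overlapped. The Hmgcs1 difference in the siRNA arm was -0.33 (SE 0.59; exact two-sided permutation p = 0.8).

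Idi1, the isopentenyl diphosphate isomerase, had 9.56, 6.78 and 6.75 in siYAP/TAZ 1 to 3, against 9.65, 7.82 and 7.21 in siGFP 1 to 3, and 9.49 in shYAP/TAZ against 9.04 in shLacZ. It was lower in each siRNA pair, yet the groups overlapped, with siYAP/TAZ 1 near the top. Its difference was -0.53 (SE 0.84; exact two-sided permutation p = 0.5). A second, dimmer probe set of Idi1 differed by -0.15, -1.96 and 0.16 in the siRNA pairs, where the brighter one gave -0.09, -1.05 and -0.47, so the probe sets had opposite signs in pair 3.

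Fdps, the farnesyl diphosphate synthase whose product feeds both sterols and protein prenylation, had 10.18, 8.81 and 7.98 in siYAP/TAZ 1 to 3, against 9.85, 7.92 and 8.55 in siGFP 1 to 3. Its shRNA values were 10.13 in shYAP/TAZ and 8.84 in shLacZ. Fdps was the 1 gene of the 8 with a siRNA mean above control, by 0.22 (SE 0.64; exact two-sided permutation p = 0.7), and the arrays of both groups overlapped.

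The remaining 3 genes carry farnesyl diphosphate to the first sterol. Fdft1, the squalene synthase, had 10.12, 8.34 and 6.93 in siYAP/TAZ 1 to 3, against 10.07, 7.92 and 8.34 in siGFP 1 to 3, and 10.43 in shYAP/TAZ against 8.75 in shLacZ. The shRNA difference of 1.68, or 3.20-fold higher in shYAP/TAZ, was the largest of the 8, and a second Fdft1 probe set gave 1.87. In the siRNA arm Fdft1 differed by -0.31 (SE 0.81; exact two-sided permutation p = 1), and siYAP/TAZ 3 stood apart as the lowest array.

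Sqle, the squalene epoxidase and a rate-limiting step of the sterol branch, had 9.26, 7.78 and 5.90 in siYAP/TAZ 1 to 3, against 9.32, 6.59 and 7.27 in siGFP 1 to 3. Its level was 8.66 in shYAP/TAZ, against 7.50 in shLacZ. Sqle was higher in siYAP/TAZ 2 than in its control and lower in siYAP/TAZ 3 by a similar amount, so the mean difference was only -0.08 (SE 0.90; exact two-sided permutation p = 0.9).

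Lss, the lanosterol synthase that closes the sterol rings, had 8.79, 6.78 and 6.15 in siYAP/TAZ 1 to 3, against 8.48, 6.74 and 6.84 in siGFP 1 to 3, and 8.32 in shYAP/TAZ against 7.46 in shLacZ. Pair 1 stood above pairs 2 and 3 in both groups, by more than any difference within a pair. The Lss difference was -0.11 (SE 0.71; exact two-sided permutation p = 0.9).

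By limma over all 19938 genes, 0 of the 8 passed the threshold of 0.05 on the adjusted p in the siRNA arm (adjusted p = 1.00 for each), and the share of all genes that passed was 0%. Neither this fit nor the permutation tests used the pairs, so their spread includes the differences between pairs. With the siRNA pair as a block the SEs ran from 0.29 (Idi1) to 0.41 (Sqle), and none of the 8 passed. Insig1 then had an unadjusted limma p of 0.0106 and an adjusted p of 0.998, and Idi1 an unadjusted p of 0.0902. Without the block, at an unadjusted limma p under 0.05, 85 genes were higher and 152 lower, and Insig1 was the 1 of the 8 among them. The lower calls at that level were 0.762% of all genes. In the mean, 7 of the 8 were lower in siYAP/TAZ, where 53.6% of all genes were, and the median difference was -0.23, against -0.02 over all genes. The sign of most single differences turned when 1 array was left out. Its partner stayed in this unpaired fit, so these values also carry the gaps between pairs. Without siGFP 1 the differences were 0.19 for Hmgcs1, 0.18 for Idi1, 0.34 for Fdft1, 0.71 for Sqle, 0.45 for Lss and 0.23 for Srebf2. Without siYAP/TAZ 3 they were 0.46 for Fdft1, 0.79 for Sqle, 0.43 for Lss and 0.30 for Srebf2. Fdps turned to -0.38 without siYAP/TAZ 1 and -0.21 without siGFP 2, and Lss to 0.12 without siYAP/TAZ 2. With both arrays of pair 1 left out, all 8 kept their sign. Hmgcs1 was then -0.27, Idi1 -0.76, Fdft1 -0.49, Sqle -0.09, Lss -0.32, Srebf2 -0.18 and Fdps 0.16. Without both arrays of pair 3, Hmgcs1 was 0.01, Fdft1 0.24, Sqle 0.56, Lss 0.18 and Srebf2 0.33. Without both of pair 2, Fdps was -0.12. The median of the 8 was 0.36 without siYAP/TAZ 3, 0.28 without siGFP 1 and -0.89 without siYAP/TAZ 1. With limma's array weights it was -0.81, and Fdps turned to -0.20.

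The 4 pairs were next set side by side. In siRNA pair 1 the differences of the 8 genes lay between -0.44 (Hmgcs1) and 0.33 (Fdps), with a median of -0.07, and 0 of 8 reached 1.5-fold in either direction. Of the 8, 3 were higher and 5 lower, beside 47% and 53% of all genes. Over all genes 7.56% were at least 1.5-fold higher and 8.73% at least 1.5-fold lower in that pair. In siRNA pair 2 the genes parted: Sqle stood at 1.19, Fdps at 0.89, Srebf2 at 0.76, Hmgcs1 at 0.47, Fdft1 at 0.43 and Lss at 0.04, while Insig1 stood at -1.24 and Idi1 at -1.05. That made 6 of 8 higher and 2 lower, beside 51.1% and 48.9% of all genes. Past 1.5-fold were 3 of 8 higher and 2 of 8 lower, beside 18.4% and 21.1% of all genes, which were the highest such shares of the 4 pairs.

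siRNA pair 3 had all 8 genes lower in siYAP/TAZ 3 than in siGFP 3, with 54.5% of all genes lower. Fdft1 stood at -1.42, Sqle at -1.37, Srebf2 at -1.12, Insig1 at -1.09 and Hmgcs1 at -1.01, and Lss, Fdps and Idi1 between -0.69 and -0.47. The median was -1.05, and 6 of 8 were at least 1.5-fold lower, beside 9.21% of all genes. The shRNA pair had all 8 genes higher in shYAP/TAZ than in shLacZ, with 47.8% of all genes higher and 52.2% lower. Fdft1 at 1.68 was followed by Fdps at 1.29, Sqle at 1.17, Hmgcs1 at 1.12, Lss at 0.86, Insig1 at 0.85, Srebf2 at 0.59 and Idi1 at 0.44. The median was 0.99, and 7 of 8 were at least 1.5-fold higher, beside 5.62% of all genes, with Srebf2 just past that fold. None of the 8 was at least 1.5-fold lower, as 8.46% of all genes were. With 1 array on each side of a pair, these are values of single arrays with no replicate check and no test.

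**Figure D2:**
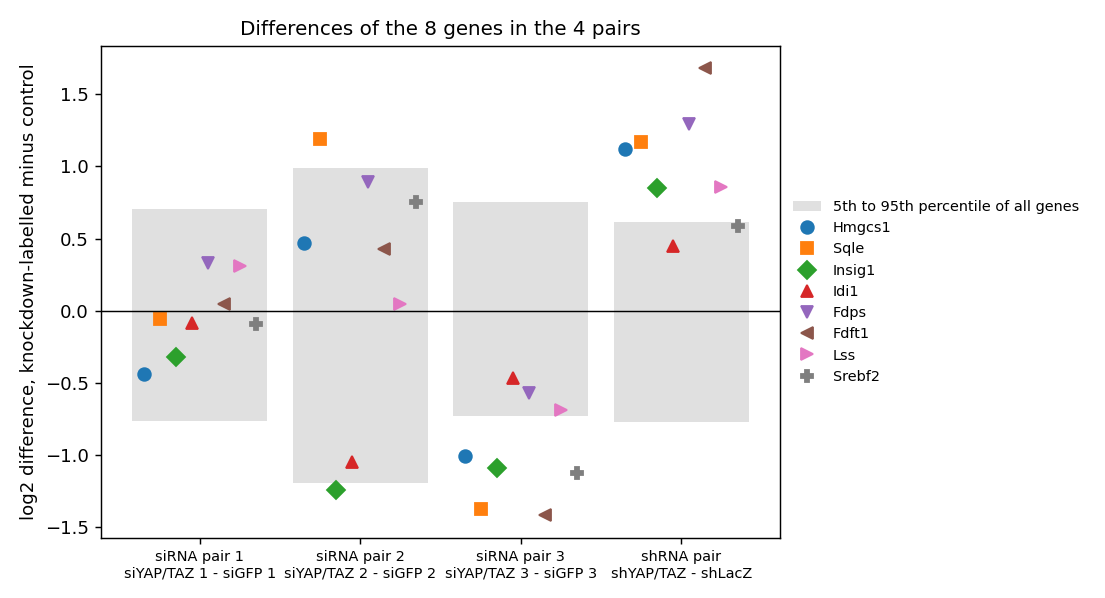
Log2 difference, knockdown-labelled minus control (y axis), of the 8 genes in the 3 siRNA pairs and the shRNA pair (x axis), 1 symbol per gene; grey bands span the 5th to the 95th percentile of all 19938 genes in that pair. All 8 symbols lie below 0 in siRNA pair 3 and above 0 in the shRNA pair, while in siRNA pair 2 only Insig1 and Idi1 of the 8 lie below 0.

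Over the 4 pairs together, limma with the pair as a block called 4 of 19938 genes, or 0.0201%, and 0 of the 8. Fdps had the largest estimate of the 8 upward, 0.49 (SE 0.29, adjusted p = 0.800), and Insig1 the largest downward, -0.45 (SE 0.32, adjusted p = 0.852). Both depended on single pairs: Insig1 was -0.19 without siRNA pair 2, -0.24 without siRNA pair 3 and -0.88 without the shRNA pair, and -0.051 with array weights. Fdps was 0.22 without the shRNA pair and 0.84 without siRNA pair 3. The others lay between -0.29 (Idi1) and 0.23 (Sqle). Of the 8, 2 were lower in each siRNA pair, Insig1 and Idi1, beside 12.9% of all genes, and 0 were higher in each, beside 9.38%. Both were higher in the shRNA pair, a combined pattern that 3.91% of all genes had.

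Across arrays, the 8 genes tended to stand high or low together. The 8 genes, each centred on its own mean, averaged 0.97 in siYAP/TAZ 1, 1.01 in siGFP 1, 1.04 in shYAP/TAZ and 0.04 in shLacZ, and -0.58 in siYAP/TAZ 2, -0.76 in siGFP 2, -1.34 in siYAP/TAZ 3 and -0.37 in siGFP 3. For 5 genes (Idi1, Fdps, Fdft1, Lss and Srebf2) all arrays of siRNA pair 1 and the shRNA pair lay above all arrays of siRNA pairs 2 and 3. Such a gap in that direction was present for 12.6% of all genes and the opposite one for 14.4%, and the split is the same as that in the highest deposited intensity. The part of signal range in these levels was not tested. Between their lowest and highest array the 8 genes spanned a median of 2.45 log2 units, from 1.81 for Srebf2 to 3.50 for Fdft1, against 1.13 over all genes. With the mean of the other 7, each gene had a Pearson r over the 8 arrays of 0.89 (Idi1) to 0.99 (Fdft1), except Insig1, which had 0.64. These 8 points share pairs and the split in signal range, and r is given as a description. Mitotic genes went the same way over the arrays, with r between 0.67 (Top2a) and 0.83 (Ccnb2) against the mean of the 8 for 11 genes. Many other genes had such an r. Among the 13350 other genes in the brighter 67%, an r of 0.76 ranked 1313 and one of 0.68 ranked 2247. The median r was -0.03. The centred mean of the mitotic genes was 1.42 in siYAP/TAZ 1, -1.26 in siYAP/TAZ 2 and -1.45 in siYAP/TAZ 3. It was 1.07 in siGFP 1, 0.52 in siGFP 2 and -1.41 in siGFP 3, with 0.55 in shYAP/TAZ and 0.56 in shLacZ. Enterocyte markers mostly went the other way, with r between -0.87 (Lct) and 0.09 (Slc5a1) for 10 genes, among them Fabp2 at -0.83 and Sis at -0.80. Their centred mean was -0.74, -0.08 and 0.59 in siYAP/TAZ 1 to 3, against -0.83, 0.45 and 0.49 in siGFP 1 to 3, and -0.22 in shYAP/TAZ against 0.34 in shLacZ. The part of dividing cells and enterocytes in the levels of the 8 was not tested.

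The genes whose pattern over the 8 arrays was most like the mean of the 8, among the 13350 other genes in the brighter 67%, were Msmo1 (r = 0.98), Mvd, Sipa1l1, Cyp51, Fndc3b and Bsx (r = 0.97 each). Msmo1, the methylsterol monooxygenase, had 10.25, 8.32 and 7.52 in siYAP/TAZ 1 to 3, against 9.99, 8.45 and 8.97 in siGFP 1 to 3, and 10.16 in shYAP/TAZ against 9.41 in shLacZ. Mvd decarboxylates mevalonate diphosphate and Cyp51 demethylates lanosterol. Of the 12 other cholesterol synthesis enzymes measured, 6 stood in the highest 1% by this r: Msmo1, Mvd, Cyp51, Nsdhl, Mvk and Hsd17b7, of which Nsdhl, Mvk and Hsd17b7 were named after their values were seen. The lowest r among the 12 was 0.31, for Sc5d, the sterol C5 desaturase.

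In the siRNA arm, 0 of the 12 other enzymes passed limma's threshold, and the median was -0.20. Of the 12, 11 were lower and 1 higher in the mean, beside 53.6% of all genes lower. Pmvk, the phosphomevalonate kinase, was the 1 above 0, at 0.43, and Msmo1 stood at -0.44 and Ggps1, the geranylgeranyl diphosphate synthase, at -0.34. Sc5d was the 1 of 12 without overlap, beside 2.99% of all genes without overlap and lower and 1.6% without overlap and higher. It stood at 9.57, 9.24 and 9.43 in siYAP/TAZ 1 to 3, against 10.19, 9.87 and 10.14 in siGFP 1 to 3. That difference was -0.65 (SE 0.28; exact two-sided permutation p = 0.1), and Sc5d was also lower in shYAP/TAZ (9.66) than in shLacZ (9.85). In siRNA pair 3, 10 of 12 were lower, beside 54.5% of all genes, with a median of -0.42. In the shRNA pair 7 of 12 were higher, beside 47.8% of all genes, with a median of 0.60. At least 1.5-fold higher were 6, beside 5.62% of all genes, and at least 1.5-fold lower were 3, beside 8.46%. Hsd17b7 stood at 1.23, Cyp51 at 1.13, Mvk at 0.76, Msmo1 at 0.75, Mvd at 0.70 and Pmvk at 0.69. On the lower side were Ggps1 at -0.96, Dhcr7 at -0.80 and Tm7sf2 at -0.71, and Dhcr7 and Tm7sf2 too were named after their values were seen.

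Among genes that move SREBPs and sense sterol, 8 were measured. Of these, 8 were lower in the siRNA mean, beside 53.6% of all genes, and 0 passed, with a median of -0.19. Scap, the escort of SREBP2, stood at -0.40, Faf2, an endoplasmic reticulum degradation factor, at -0.42, Erlin2 at -0.29 and Insig2, the second INSIG gene, at -0.19. Their median in the shRNA pair was -0.17, with 3 of 8 higher, beside 47.8% of all genes.

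Of 8 genes listed as SREBP2 targets outside the synthesis pathway 6 were measured. Of these 6, 5 were lower in the siRNA mean, beside 53.6% of all genes, and 0 passed (median -0.55). Stard4, which carries cholesterol between membranes, did not overlap between groups: it had 7.62, 7.99 and 8.01 in siYAP/TAZ 1 to 3, against 8.52, 8.55 and 8.56 in siGFP 1 to 3. Stard4 was the 1 of 6 without overlap, beside 2.99% of all genes without overlap and lower and 1.6% without overlap and higher. It was lower in shYAP/TAZ as well, at 7.86 against 8.34 in shLacZ, so Stard4 was lower in all 4 pairs. Of the 6 genes, 2 were lower in each siRNA pair, beside 12.9% of all genes. The shRNA pair had 52.2% of all genes lower, and the share lower in all 4 pairs was not counted. The Stard4 difference in the siRNA arm was -0.67 (SE 0.28; limma adjusted p = 1.00), and over the 4 pairs -0.63 (SE 0.19; limma adjusted p = 0.428). Npc1l1, the intestinal cholesterol importer, stood at -0.42 in the siRNA arm and -0.61 in the shRNA pair. The fatty acid desaturase genes Fads2 and Fads1 stood at -0.84 and -0.72 in the siRNA arm and at -0.22 and -1.22 in the shRNA pair.

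On the export side, 4 of 6 LXR target and sterol efflux genes were lower and 2 higher in the siRNA mean. The median was -0.24, and 0 passed. Of all genes, 53.6% were lower in that mean. Abcg5 and Abcg8, which together form the pump that returns sterol to the gut lumen, were lower in each of the 4 pairs. Of the 6 genes, these 2 were lower in each siRNA pair, beside 12.9% of all genes. Lower in the shRNA pair were 52.2% of all genes, and the share lower in all 4 pairs was not counted. Abcg8 differed by -1.0, -0.80 and -0.32 in the siRNA pairs and -0.71 in the shRNA pair, and Abcg5 by -1.11, -0.44, -0.13 and -0.90 in the same order. Neither group of arrays stood clear of the other for these genes. Mylip, the LXR-induced ubiquitin ligase of lipoprotein receptors, stood at -0.38 and Abcg1 at 0.36 in the siRNA arm.

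**Figure D3:**
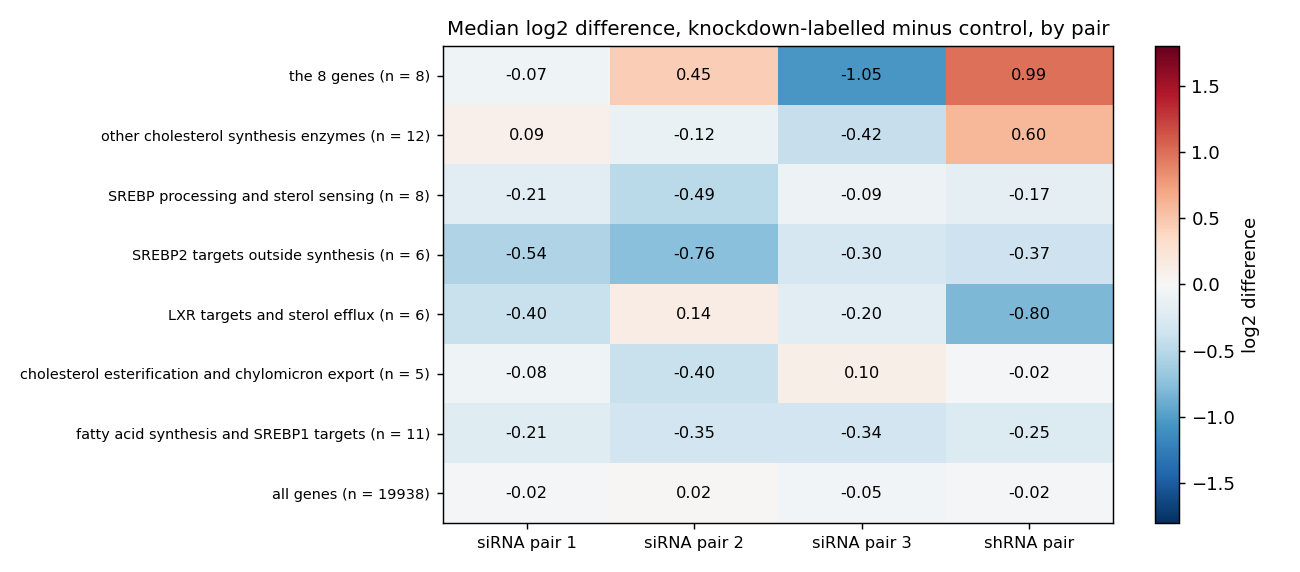
Median log2 difference, knockdown-labelled minus control, of the sterol and lipid gene lists and of all genes (rows, with the number of genes measured) in the 3 siRNA pairs and the shRNA pair (columns); colour follows the printed value. Among the 7 sterol and lipid lists drawn, the 8 genes had the lowest median in siRNA pair 3, -1.05, and the highest in the shRNA pair, 0.99, with the other cholesterol synthesis enzymes at -0.42 and 0.60.

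Markers of other cells and of position along the gut also differed within the pairs. Of all genes, 53%, 48.9% and 54.5% were lower in siRNA pairs 1 to 3, and 52.2% in the shRNA pair. In the siRNA mean, 53.6% were lower. In siRNA pair 1, where the 8 genes had a median of -0.07, 6 of 8 ileal genes were lower (median -1.09). Crypt base stem cell markers were lower there for 8 of 10 (median -0.84) and fibroblast markers for 7 of 7 (median -0.41). Mitotic genes were higher there for 11 of 11 (median 0.33). Ileal genes were higher for 6 of 8 in siRNA pair 2 (median 1.05), and proximal small intestine genes for 6 of 7 in siRNA pair 3 (median 0.76). In siRNA pair 3, 8 of 8 ileal genes were lower (median -1.74), 7 of 7 epithelial markers were lower (median -0.45), 7 of 7 goblet cell markers were lower (median -0.58), 9 of 9 B and plasma cell markers were higher (median 1.13) and 6 of 7 T cell markers were higher (median 1.04). In the shRNA pair, 7 of 7 myeloid cell markers were higher (median 0.99), with a summed log2 level of 11.24 in shYAP/TAZ and 10.85 in shLacZ, 9 of 9 B and plasma cell markers were lower (median -0.59) and 10 of 10 crypt base stem cell markers were lower (median -0.57). In siRNA pair 2, 11 of 11 mitotic genes were lower (median -1.73), 10 of 10 crypt base stem cell markers were lower (median -1.93) and 9 of 9 B and plasma cell markers were higher (median 3.06), beside the median of 0.45 of the 8 genes. Beside the lower Insig1 values of the siRNA arm, 10 of 10 crypt base stem cell markers were lower in the mean (median -0.89; summed level 9.76 to 11.55 in siYAP/TAZ and 10.16 to 12.76 in siGFP). B and plasma cell markers were higher for 8 of 9 (median 1.5; summed level 8.27 to 11.28 in siYAP/TAZ and 8.34 to 8.88 in siGFP). By pair, Insig1 differed by -0.32, -1.24 and -1.09 in siRNA pairs 1 to 3 and by 0.85 in the shRNA pair. The medians of the crypt base stem cell markers were -0.84, -1.93, -0.23 and -0.57 in the same order. Of these 10 markers, 4 were higher in siRNA pair 3. The B and plasma cell markers had a median of 0.04 in siRNA pair 1, with 5 of 9 higher. Summed ileal levels ran from 12.02 to 13.77 in siYAP/TAZ and from 12.77 to 13.78 in siGFP, and summed goblet levels from 13.99 to 14.16 in siYAP/TAZ and from 13.88 to 14.75 in siGFP. No marker on these arrays has a value of 0. The part of these cells and regions in the sterol gene values was not tested.

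**Figure D4:**
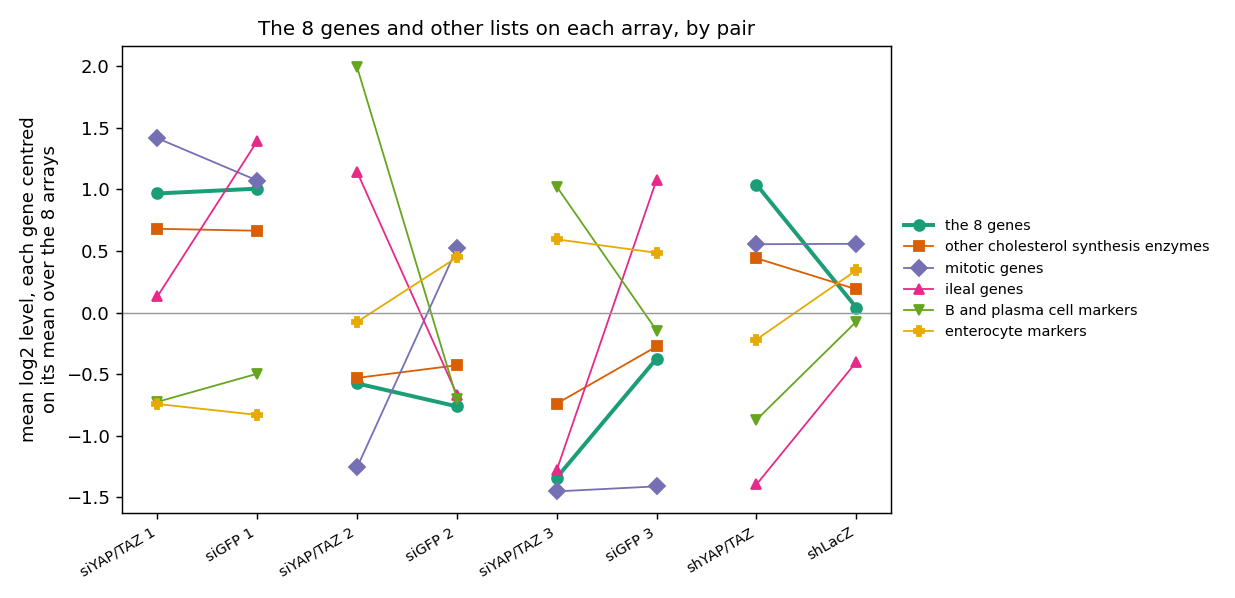
Mean log2 level of each list (y axis, every gene centred on its mean over the 8 arrays) on the 8 arrays (x axis), with a line joining each knockdown-labelled array to its control. The 8 genes stand at 0.97 and 1.01 in siRNA pair 1 and below 0 in pairs 2 and 3; mitotic genes share their sign on every array except siGFP 2, and enterocyte markers lie at -0.74 and -0.83 in siRNA pair 1.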

How the data were processed

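Total RNA of isolated epithelial cells was biotin-labelled with Affymetrix's whole-transcript kit, per the labels' protocols. Each probe set has 1 deposited intensity per array, on a linear scale. No source used here gives the background correction, probe summary or scaling behind it. Every array's minimum was just above 16. Values were put on the log2 scale and quantile normalized, because array medians lay up to 0.32 apart. Probe sets naming several genes (1621) or none listed (5443) were not used. Of 21789 probe sets naming 1 gene, 21698 took a current symbol from a RefSeq table (GRCm38.p6) by Entrez identifier. The siYAP/TAZ and siGFP arrays were compared with limma 3.58.1 in R 4.3.3 (lmFit, eBayes; Benjamini-Hochberg over all genes, threshold 0.05) and with exact two-sided permutation tests (scipy 1.17.1). The 4 pairs were fitted with the pair as a block. The code was tested on simulated data with independent noise and no gaps between pairs, so that test does not bear on such gaps. Precision is limited by the number of arrays.

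The 8 genes and all lists were chosen with earlier results of these data known. Other genes were named by a rule: up to 4 genes of each list with the largest siRNA difference, and the 6 genes with the highest r with the mean of the 8. Lists held 15 other synthesis enzymes (12 measured), 10 SREBP processing genes (8 measured), 8 other SREBP2 targets (6 measured), 7 LXR targets (6 measured), 7 esterification and chylomicron genes (5 measured), 11 fatty acid synthesis genes, and markers of cell types and gut regions. Members without a probe set naming them alone were not analysed here. Alternatives were centring on the 75th percentile, no normalization, 16 subtracted, the dimmest 33% left out, the mean of probe sets, a trended robust prior, array weights, the replicate block and leaving out arrays.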

Additional observations from a re-analysis of the deposited data

Results flagged for a closer look

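Insig1 and Idi1 differed one way in every siRNA pair and the other way in the shRNA pair. Insig1 differed by -0.32, -1.24 and -1.09 in siRNA pairs 1 to 3 and by 0.85 in the shRNA pair. Idi1 differed by -0.087, -1.05 and -0.47 in the siRNA pairs and by 0.44 in the shRNA pair. A second probe set of Idi1 stood at 0.16 in siRNA pair 3, so the pattern of Idi1 held for 1 of its 2 probe sets. The difference between the arms was not tested, since the shRNA arm has 1 array per group.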

How the results depend on the processing

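None of the 8 genes passed limma's threshold under the 18 alternatives of the siRNA fit or the 12 of the 4-pair fit, and the smallest adjusted p was 0.112, for Insig1 with array weights. In the siRNA arm, 1 gene was called higher with the replicate block, and 2 higher and 1 lower with signal range as a block, an alternative added after seeing the data, as was leaving out both arrays of a pair. Leaving out arrays gave 0 to 45 higher and 0 to 16 lower calls, the most without both arrays of pair 1. Same-numbered siRNA arrays deviated with r of 0.755, -0.13 and 0.571, and siYAP/TAZ 2 correlated best with siGFP 3 (0.583), so these values do not show that same-numbered arrays share a source. The pairs used in the text are those the labels name, and the replicate block left the call of each of the 8 as it was. Over the 4 pairs, genes called higher and lower were 7 and 8 with 75th percentile centring, 7 and 12 with no normalization, 6 and 6 with a trended robust prior, 36 and 60 with array weights, and 0 and 0 with no replicate block. With 16 subtracted 0 were called lower, and 5 with dim genes left out. Leaving out 1 pair gave 1 to 7 higher (6 without siRNA pair 1, 7 without pair 2, 4 without pair 3) and 0 to 19 lower (5 without siRNA pair 1, 19 without pair 2).

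Leaving out arrays moved the siRNA differences of Hmgcs1 between -0.87 and 0.19, Sqle between -0.89 and 0.79, Idi1 between -1.47 and 0.18, Fdps between -0.38 and 0.76, Fdft1 between -1.14 and 0.46, Lss between -0.89 and 0.45 and Srebf2 between -0.61 and 0.33. Insig1 stayed between -1.20 and -0.70. With array weights the median of the 8 was -0.81, with Sqle at -0.88, Insig1 at -1.17, Idi1 at -1.28, Fdft1 at -1.11, Lss at -0.75, Srebf2 at -0.43, Hmgcs1 at -0.38 and Fdps at -0.20. In the 4-pair fit, without the shRNA pair Hmgcs1 was -0.33, Sqle -0.082, Fdft1 -0.31, Lss -0.11 and Srebf2 -0.15; without siRNA pair 2, Hmgcs1 was -0.11, Sqle -0.089 and Srebf2 -0.21. Srebf2 was -0.016 with no normalization. With array weights the 4-pair estimate was -0.051 for Insig1, -0.021 for Idi1, 0.20 for Hmgcs1, 0.33 for Lss and 0.50 for Fdft1, and the median 0.27. Beyond these constructions the causes were not tested. In the shRNA pair the median of the 8 stayed between 0.94 and 1.03 under 4 alternatives.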

Other observations

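Fatty acid synthesis is the branch of lipid synthesis that SREBP1 mainly drives. Its genes were lower in the siRNA mean for 10 of 11 measured, beside 53.6% of all genes, with 0 past limma's threshold. The median log2 difference was -0.31. By pair, the medians were -0.21, -0.35 and -0.34 in siRNA pairs 1 to 3 and -0.25 in the shRNA pair. There 9 of 11 were lower, beside 52.2% of all genes. Scd2, a stearoyl-CoA desaturase, stood at -0.85 (SE 0.77) in the siRNA arm and at -2.90 in the shRNA pair, with 6.26 in shYAP/TAZ against 9.15 in shLacZ. Acss2, which makes acetyl-CoA from acetate, was lower in all 4 pairs, at -1.02, -1.20 and -0.33 in the siRNA pairs and -0.84 in the shRNA pair. Of the 11 genes, 3 were lower in each siRNA pair, beside 12.9% of all genes. The share of all genes lower in all 4 pairs was not counted. Gpam, of glycerolipid synthesis, stood at -0.71 and Thrsp at -0.74 in the siRNA arm.

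Genes of cholesterol esterification and chylomicron export were lower for 2 of 5 and higher for 3 of 5 in the siRNA mean. The median was 0.03, with 0 past the threshold. Of all genes, 53.6% were lower in that mean. Apob, the scaffold protein of chylomicrons, stood at -0.36, Scarb1, a lipoprotein receptor, at 0.35, Apoa1 at -0.24 and Mttp, which loads lipid onto Apob, at 0.13. Srebf1, the gene of SREBP1, differed by -0.35, -1.06 and 1.16 in the siRNA pairs and by 0.35 in the shRNA pair, so it ran against Srebf2 in pairs 2 and 3; Srebf1 was singled out after its values were seen.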
